A study of Oryctolagus cuniculus with 12 samples.

Results

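TNNC1 and TNNC2 are the 2 genes for troponin C, and their signals were followed over every aortic array of a rabbit model of coarctation of the aorta (CoA). They were found by matching the RefSeq accession that the array design gives for each probe to the rabbit gene symbols. A symbol was found for 3368 of the 43603 different probes, covering 1264 genes, and 1 probe carried each troponin C gene. The TNNC1 probe (A_04_P029036) was designed on XM_002713240, and the TNNC2 probe (A_04_P000351) on NM_001082645. Both genes were selected on the same quantile normalized signals of the Control, CoA and Corrected arrays that are given below, so their levels and group differences are described here without a test.

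Troponin C is the calcium sensor of striated muscle. When calcium binds to its EF hands, troponin I loosens its hold on actin and tropomyosin moves aside, so that myosin can bind the thin filament. TNNC1 encodes the form of heart and slow skeletal fibres, and TNNC2 the form of fast skeletal fibres. Vascular smooth muscle, the main contractile cell of the aorta, is switched on by another EF-hand protein, calmodulin, through myosin light chain kinase, and smooth muscle thin filaments carry caldesmon rather than the troponin complex.

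The study asked which genes in the proximal aorta differ when the pressure load of a coarctation is present, and which still differ once it has been relieved. All rabbits were male New Zealand white rabbits of 32 weeks, and a 4 mm ring of thoracic aorta was taken from each. A gradient of 20 mmHg was imposed in both operated groups, at a younger age than at harvest. CoA rabbits (n = 4) carried a permanent silk suture. Corrected rabbits (n = 4) carried a Vicryl suture that degraded and left a mild residual narrowing. From the strength of that suture, the paper estimates weeks of altered hemodynamics, followed by months at normal pressure. Control rabbits (n = 4) were not operated on, so the surgery itself cannot be told apart from the narrowing. Each ring was hybridised to 1 Agilent rabbit array with 1 dye. The array of Corrected replicate 3 stays out of the group means, because the study left it out. Whole rings were used, and in such bulk RNA fewer cells of a type and less RNA per cell cannot be told apart.

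Some arrays stood apart and are named beside each result that they touch. Over the 27283 probes detected on at least 8 of 12 arrays, CoA replicate 2 differed from the other CoA arrays by a median of 0.79 to 0.92 on the log2 scale, against 0.25 to 0.35 among those other arrays. Control replicates 3 and 4 differed by a median of only 0.15, against 0.43 to 0.53 for the other Control pairs, although they were scanned on different days. Corrected replicate 3 was the dimmest array, with 45.6% of its spots well above background, while the 11 arrays in use had 55.8% to 77.7%. The headers record 4 scans, and all CoA arrays share 1 scan that holds no other group, so that scan and CoA cannot be told apart.

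Both troponin C probes were read well above background on 12 of 12 arrays. Averaged over the 11 arrays used, their log2 signals lay at the 88.7th percentile (TNNC1) and the 83.8th percentile (TNNC2) of the probes tested. Neither was close to the floor of the scanner signal, because the lowest processed signals were 523 for TNNC1 and 276 for TNNC2, both on the array of Control replicate 4. Values below are quantile normalized log2 signals, on which a difference of 1 is a 2-fold difference.

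TNNC1, the cardiac and slow-fibre form, was lowest in Control. Its log2 signals were 11.11, 10.26, 8.83 and 9.04 on Control replicates 1 to 4, with a mean of 9.81 ± 1.07 (SD, n = 4). On CoA replicates 1 to 4 they were 12.32, 16.21, 12.39 and 11.56, with a mean of 13.12 ± 2.10 (SD, n = 4). Every CoA array lay above every Control array, by 0.45 at the narrowest point, and CoA replicate 2 lay 3.02 above any other of the 11 arrays. The CoA mean without replicate 2 was 12.09 ± 0.46 (SD, n = 3), a much smaller spread.

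Corrected replicates 1, 2 and 4 gave TNNC1 log2 signals of 12.84, 10.55 and 13.19, with a mean of 12.19 ± 1.44 (SD, n = 3). Replicates 1 and 4 were above all Control arrays, while replicate 2 lay between Control replicates 1 and 2. Corrected replicate 3, left out of the mean, was at 11.76. The Corrected and CoA arrays overlapped.

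TNNC2, the fast-fibre form, had the same order of groups. Its log2 signals on Control replicates 1 to 4 were 10.02, 9.49, 8.17 and 8.12, with a mean of 8.95 ± 0.96 (SD, n = 4). CoA replicates 1 to 4 gave 11.21, 15.07, 11.45 and 10.53, with a mean of 12.07 ± 2.04 (SD, n = 4), or 11.07 ± 0.48 (SD, n = 3) without replicate 2. As for TNNC1, the CoA arrays all lay above the Control arrays, here by at least 0.51, and replicate 2 lay 3.14 above any other array.

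On Corrected replicates 1, 2 and 4 the TNNC2 log2 signals were 11.93, 10.74 and 11.86, with a mean of 11.51 ± 0.67 (SD, n = 3). Corrected replicate 3 was at 11.42. For this gene the 3 Corrected arrays in use were all above the Control arrays, by 0.72 or more, and they overlapped with CoA.

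**Figure D1:**
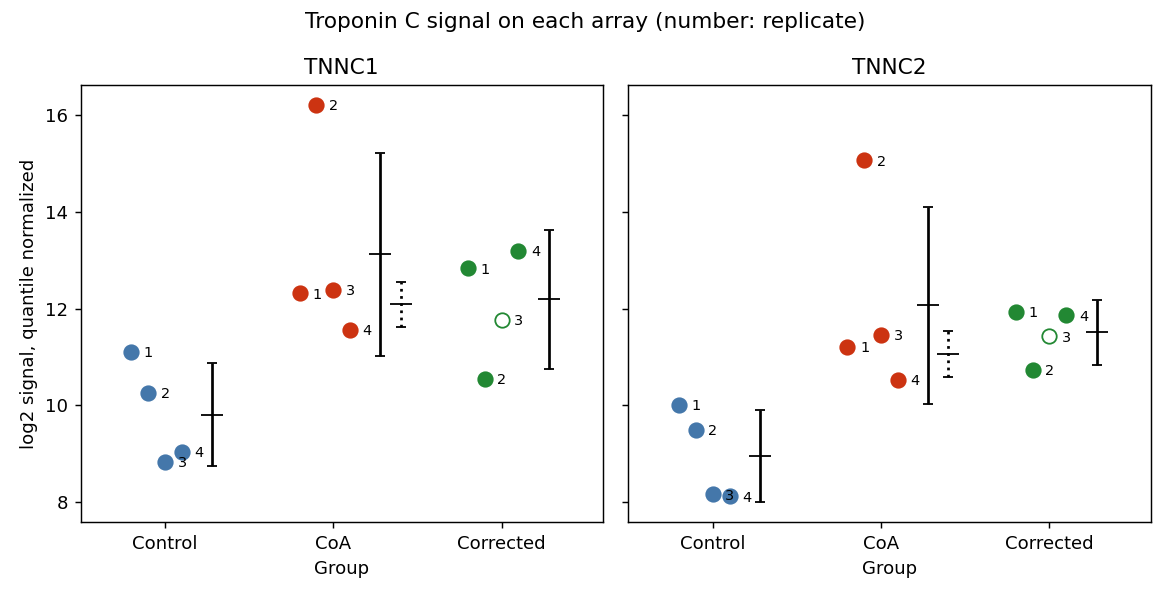
Quantile normalized log2 signal (vertical axis) of TNNC1 (left) and TNNC2 (right) on each array of the Control, CoA and Corrected groups (horizontal axis). Each point is 1 array and carries its replicate number. The open circle is Corrected replicate 3, which is left out of the mean. Horizontal marks with bars are group means with SD, dotted for CoA without replicate 2. CoA replicate 2 sits at 16.21 for TNNC1 and 15.07 for TNNC2, above all other arrays, and the Control arrays are below every CoA array for both genes.

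The scanner's background-subtracted signal, before normalization, shows how far the arrays were apart. The TNNC1 signal was 4139, 1621, 641 and 523 on the Control arrays and 5672, 75269, 6235 and 3773 on the CoA arrays, in order of replicate. For TNNC2 it was 2129, 953, 410 and 276 on the Control arrays and 2753, 32156, 3343 and 1907 on the CoA arrays. On this scale CoA replicate 4 was below Control replicate 1 for both genes, so that the groups separated only after normalization, whether by quantiles, by the 75th percentile of each array or after another background correction. Corrected replicates 1, 2 and 4 gave 12265, 2532 and 6681 for TNNC1 and 7133, 2876 and 2539 for TNNC2. The dim Corrected replicate 3 gave 801 and 585.

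The differences in mean log2 signal were of similar size for both genes. Their SE is taken from the compared groups alone, whereas the SE of every other gene below comes from the limma model over all groups. For CoA vs Control, TNNC1 was 3.31 (SE 1.18) higher, or 9.95-fold, and TNNC2 was 3.12 (SE 1.13) higher, or 8.67-fold. These differences were 2.28 (SE 0.60), or 4.87-fold, and 2.12 (SE 0.55), or 4.33-fold, without CoA replicate 2. For Corrected vs Control, TNNC1 was 2.38 (SE 0.99) higher, or 5.22-fold, and TNNC2 was 2.56 (SE 0.61) higher, or 5.90-fold. These comparisons share the Control arrays.

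For CoA vs Corrected the sign depended on 1 array. With 4 CoA arrays TNNC1 was 0.93 (SE 1.34) higher in CoA and TNNC2 0.56 (SE 1.09) higher, both less than their SE. Leaving out CoA replicate 2 gave -0.10 (SE 0.87) for TNNC1 and -0.45 (SE 0.48) for TNNC2, again less than their SE. With so few arrays, neither a difference between the CoA and Corrected levels nor its absence can be read from these values.

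Both troponin C genes were among the probes with the largest differences from Control, given here as a description because these differences chose the genes. Counted from the highest difference over 27283 probes, TNNC1 ranked 30 and TNNC2 ranked 34 in CoA vs Control. The ranks without CoA replicate 2 were 109 and 143, and in Corrected vs Control they were 27 and 22. Groups did not overlap, with CoA higher, for 6.87% of all probes in CoA vs Control, and for 9.75% without CoA replicate 2. With Corrected above Control the share was 5.25%, and TNNC2 but not TNNC1 belonged to it. CoA lay above Corrected on every array for 2.33% of probes, or 4.15% without CoA replicate 2, and neither troponin C gene was among them. For 24.9% of all probes the highest of the 11 arrays was CoA replicate 2.

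The Control group was uneven for these genes. Control replicates 3 and 4, the pair of arrays that were nearly alike over all probes, differed by 0.21 for TNNC1 and 0.04 for TNNC2 and were both below replicates 1 and 2. Counted as 1 sample, they gave CoA vs Control differences of 3.02 for TNNC1 and 2.85 for TNNC2. With replicates 3 and 4 and also CoA replicate 2 left out, an alternative added after the values were seen, the differences were 1.41 for TNNC1 and 1.31 for TNNC2.

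Some smooth muscle and adipocyte genes also set Control replicates 3 and 4 apart from the other Control arrays, and others did not. MYH11, the smooth muscle myosin heavy chain, was at 14.55 and 13.73 on Control replicates 1 and 2 and at 12.46 and 12.60 on replicates 3 and 4. For ADIPOQ, the adipocyte hormone adiponectin, those values were 6.01 and 4.94 against 7.44 and 7.64. UCP1, the uncoupling protein of brown fat, was at 6.19 and 4.13 against 7.09 and 7.33, and its probe was detected on too few arrays to be tested. LPL, lipoprotein lipase, went the other way, since its 11.59 and 11.63 on replicates 3 and 4 were below both other Control values, and the adipocyte genes PPARG and DIO2 and the smooth muscle genes CALD1, DES and PPP1CB did not separate the pairs. How much of the low troponin C signal on these arrays goes with the makeup of the rings was not tested.

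One scan held arrays of both Control and Corrected rabbits, namely Control replicates 1, 2 and 4 with Corrected replicate 2. Within it, Corrected replicate 2 was 0.41 above the Control mean for TNNC1 and 1.53 above it for TNNC2, on 1 Corrected array. The other Corrected arrays shared a scan with no Control array.

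The 2 troponin C probes moved together from array to array. Across the 11 arrays the Pearson correlation of their log2 signals was 0.983 (Spearman 0.955), and it was 0.964 without CoA replicate 2. Leaving out CoA replicate 2 and Control replicate 3, the ends of the TNNC1 range, it was 0.949 over 9 arrays. These correlations describe arrays that share group, scan and depth of signal.

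Taken as a shift from the Control mean, TNNC1 minus TNNC2 lay between -0.19 and 0.47 on 10 of the 11 arrays. The exception was Corrected replicate 2, on which TNNC1 was shifted by 0.74 and TNNC2 by 1.79, a difference of -1.05. Corrected replicate 3 was next, at -0.52. CoA replicate 2, by contrast, had nearly equal shifts of 6.41 and 6.12. The probe sequences were not used here, and whether each probe binds only its own transcript was not tested.

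Few other components of the thin filament could be read. Of 18 listed genes for troponins T and I, tropomyosins, sarcomeric actins and their regulators, 4 had a probe with a symbol, and all 4 were tested. Genes were counted as higher or lower at more than a 2-fold difference with an unadjusted p under 0.05 in limma. The study set these limits for its lowest fold-change bin, in other software, and a higher fold change for its gene lists. By the limma criterion 3.59% of all probes were higher and 5.22% lower in CoA vs Control. Of the 27283 probes, 0 passed a Benjamini-Hochberg adjusted p of 0.05 in limma, while 3877 had an unadjusted p under 0.05. In CoA vs Control 0 of the 4 thin filament genes passed in either direction, and their median difference was 0.40, against 0.06 over all probes.

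That median was -0.30 without CoA replicate 2. In Corrected vs Control, where 2.41% of all probes were higher and 2.98% lower, 1 of the 4 genes rose. It was TPM2, beta-tropomyosin, with a log2 difference of 1.30 (SE 0.53, adjusted p = 0.569 in limma). TPM2 missed the criterion in 8 of 24 alternatives, among them those without Corrected replicate 4, at 0.55, and without Control replicate 3 or 4, at 1.16 and 1.25. TNNI2, the inhibitory troponin I of fast fibres, was at 4.81 to 6.39 on the Control arrays and 3.50 to 5.79 on the CoA arrays, and had its lowest value on CoA replicate 2, where TNNC2 was highest.

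TNNI3K, a cardiac kinase that binds troponin I, was far higher on CoA replicate 2 than on the rest of its group. Its log2 signal was 11.22 there and between 5.83 and 6.02 on the other CoA arrays, and the next highest value was 9.33 on Corrected replicate 3. TPM1, alpha-tropomyosin of striated and smooth muscle, was also highest there, at 11.87 against 9.77 to 10.20 on the other CoA arrays.

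Several genes of heart and slow muscle shared the high signal of CoA replicate 2. Of 37 listed genes, 13 had a probe and 10 were tested, and 3 of those 10 were more than 2 on the log2 scale above the highest of the other 10 arrays, a margin that 0.850% of all probes passed. They were CKMT2, the mitochondrial creatine kinase of striated muscle, ANKRD1, a stress-responsive sarcomeric protein, and CASQ2, the cardiac calsequestrin that stores calcium in the sarcoplasmic reticulum. CKMT2 was at 14.17 on CoA replicate 2 and at 4.44 to 4.93 on the other CoA arrays. ANKRD1 was at 11.87 against 5.41 to 7.03, and CASQ2 at 14.50 against 9.68 to 10.99.

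RYR2, the ryanodine receptor that releases calcium in the heart, was at 14.01 against 9.57 to 10.40, with a margin of 1.92 over the next array, Corrected replicate 4. Its 3 tested probes disagreed, since CoA replicate 2 exceeded the mean of the other CoA arrays by 1.18 to 4.27. The myosin chains and troponins that define heart muscle, such as MYH6, MYH7, MYL2, TNNT2 and TNNI3, had no probe with a symbol here and were not analysed. The study mapped probes to human orthologues instead. It listed TNNT2, cardiac troponin T, and MYOZ2, myozenin 2, as upregulated in both comparisons with Control.

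In CoA vs Control 1 of the 10 tested cardiac and slow muscle genes rose and 0 fell, and their median log2 difference was 0.96. The gene was PLN, phospholamban, the inhibitor of the sarcoplasmic reticulum calcium pump, which smooth muscle also expresses. Its log2 signals were 11.24, 11.90, 10.59 and 10.67 on the Control arrays and 12.23, 13.41, 12.13 and 12.19 on the CoA arrays, so that the groups did not overlap. The difference was 1.39 (SE 0.43, adjusted p = 0.262 in limma), and it was 1.09 without CoA replicate 2. Without that array the median of the list was 0.56, and PLN was again the 1 gene that passed. In Corrected vs Control 0 of the 10 passed with all CoA arrays. Without CoA replicate 2, 1 of the 10 passed there, ANKRD1, which rose by 1.28 (SE 0.52). That setting called 799 of the 27283 probes higher and 908 lower. In CoA vs Corrected, where 1.44% of all probes were higher and 1.33% lower, 0 of the 10 passed, with or without CoA replicate 2.

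Genes of fast skeletal muscle fell into separate patterns, and only part of them moved with TNNC2. Of 41 listed genes, 22 had a probe and 17 were tested. On CoA replicate 2, 3 of the 17 were more than 2 on the log2 scale above the highest other array, namely CKM, the cytosolic muscle creatine kinase, SRL, the sarcoplasmic reticulum protein sarcalumenin, and TRDN, triadin, which anchors calsequestrin to the ryanodine receptor. CKM was at 13.28 on that array and at 3.87 to 4.79 on the other CoA arrays. SRL was at 13.55 against 3.69 to 4.53, and TRDN at 8.74 against 5.43 to 5.64. These genes are also expressed in the heart.

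MYH1, a fast myosin heavy chain, and ATP2A1, the calcium pump of fast fibres, were not high on that array. MYH1 was at 4.45 on CoA replicate 2, within the 3.93 to 4.61 of the other CoA arrays, and ATP2A1 was at 4.59 against 3.39 to 4.02. They were highest on Corrected replicates 2 and 1 instead, at 9.96 and 7.33 for MYH1 and at 8.78 and 6.71 for ATP2A1. MYL1, the fast alkali light chain, was detected on only 4 arrays and had its highest values there too, at 8.57 and 5.30. Corrected replicate 2, with the highest signals of these 3 fast-fibre genes, is the array on which TNNC2 was shifted most beyond TNNC1. On Corrected replicate 1, the next highest for all 3, the shifts were nearly equal, with TNNC1 minus TNNC2 at 0.05. Whether these genes go with the TNNC2 shift was not tested.

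Over the 11 arrays the correlation of TNNC2 with MYH1 was 0.08, and with ATP2A1 it was -0.02. The values were 0.30 and 0.04 without CoA replicate 2. TNNC1 gave -0.07 and -0.17 over the 11 arrays. Other genes of the fast muscle list were closer to TNNC2 over the 11 arrays, with 0.80 for SRL, 0.65 for SLN, 0.59 for CKM and 0.53 for MYL11. Without CoA replicate 2 these were 0.56, 0.45, -0.39 and 0.48. The smooth muscle genes MYH11 and ACTA2, at 0.16 and -0.09 over the 11 arrays, then reached 0.72 and 0.75 (Spearman 0.53 and 0.38). They were not alone in this, since ANKRD1, PLN and RYR2 gave 0.88, 0.82 and 0.83 over the 11 arrays and 0.73, 0.68 and 0.60 without it. SPP1, osteopontin, gave 0.69 and 0.75, whereas CKMT2 went from 0.63 to -0.16. All lie below the 0.983 and 0.964 between the 2 troponin C genes.

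By the same criterion, 3 of the 17 fast muscle genes rose in Corrected vs Control and 0 fell. MYH1 was 2.82 higher (SE 0.81, adjusted p = 0.442 in limma), SLN, the calcium pump inhibitor sarcolipin, 1.50 higher (SE 0.51) and MYL11, the fast regulatory light chain, 1.01 higher (SE 0.38). Much of this came with Corrected replicate 2, without which MYH1 passed at 1.60, and SLN and MYL11 missed the criterion at 1.18 and 0.60. MYL11 also missed it without Control replicate 3 or 4, at 0.95 and 0.96. In CoA vs Corrected 2 of the 17 were lower in CoA, with a log2 difference of -3.14 (SE 0.81) for MYH1 and -2.62 (SE 0.84) for ATP2A1. Both passed again without Corrected replicate 2, at -1.92 and -1.48. Leaving out CoA replicate 2 raised both counts to 4 of the 17. In Corrected vs Control it added SRL, 1.22 higher (SE 0.40). In CoA vs Corrected it added SLN at -1.49 (SE 0.33) and ACTN3 at -1.02 (SE 0.29). Of the 27283 probes, that setting called 799 higher in Corrected vs Control and 447 lower in CoA vs Corrected.

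In CoA vs Control 1 of the 17 rose, JPH1, junctophilin 1, which holds the sarcoplasmic reticulum close to the cell membrane. It was 1.69 higher (SE 0.60), but its 7 probes disagreed, with differences from -0.01 to 1.80. With CoA replicate 2 left out, which called 3.00% of all probes higher and 4.11% lower, JPH1 passed again, and MYOG, the muscle transcription factor myogenin, and PHKG1, a subunit of phosphorylase kinase, fell by 2.14 and 2.35. The median over the 17 genes was 0.38 with all CoA arrays and 0.01 without CoA replicate 2.

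**Figure D2:**
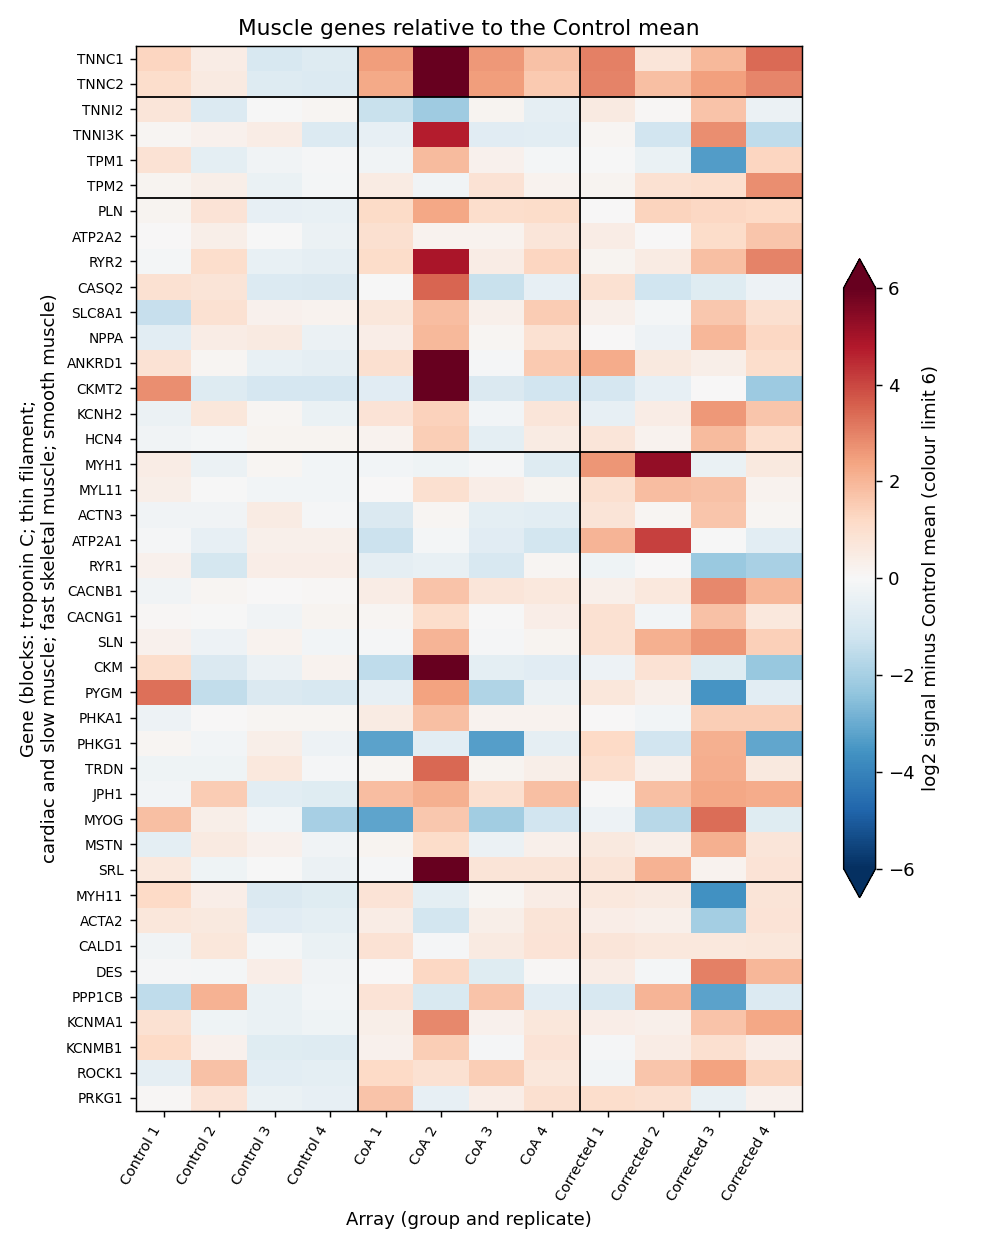
Log2 signal minus the Control mean (colour, limits at 6) for the troponin C genes and the tested genes of the thin filament, cardiac and slow muscle, fast skeletal muscle and smooth muscle lists (vertical axis, blocks separated by lines) on each of the 12 arrays (horizontal axis, groups separated by lines). Both troponin C genes are positive on every CoA and Corrected array, whereas CKM, CKMT2 and SRL have their highest values on CoA replicate 2 and MYH1 and ATP2A1 theirs on Corrected replicates 2 and 1.

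Muscle genes that were far higher on CoA replicate 2 than on the rest of its group differed in their level on the remaining CoA arrays. TNNC1 was above its highest Control value on CoA replicates 1, 3 and 4, by at least 0.45. CKMT2 on those arrays lay between 4.44 and 4.93, overlapping with the 4.57 to 8.38 of the Control arrays. CKM lay between 3.87 and 4.79 on them, against 4.52 to 6.43 in Control, and SRL between 3.69 and 4.53, against 3.40 to 4.36, so that all 3 genes overlapped with Control on these arrays. PLN was like the troponin C genes in this respect, since its 12.13 to 12.23 on those arrays was above its highest Control value of 11.90.

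**Figure D3:**
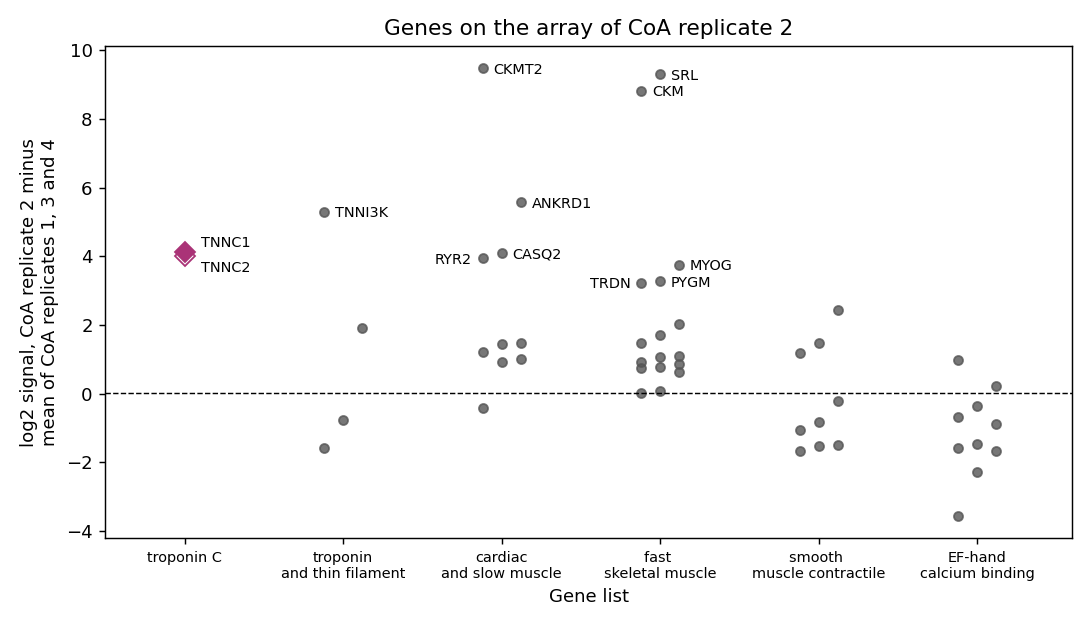
Log2 signal on CoA replicate 2 minus the mean of CoA replicates 1, 3 and 4 (vertical axis) for the troponin C genes (diamonds) and the tested genes of 5 lists (circles), with lists along the horizontal axis and genes above 3 named. The dashed line is the median of all probes tested, 0.04, and each gene is shown by its brightest probe. TNNC1 and TNNC2 stand at 4.12 and 4.01, below CKMT2, SRL and CKM and close to RYR2 and CASQ2, while the smooth muscle and EF-hand genes stay below 3.

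Genes of the smooth muscle contractile machinery, the native program of the aortic wall, gave no calls. Of 24 listed genes, 9 had a probe and were tested, and 0 of the 9 passed in either direction in any of the 3 comparisons. PRKG1, the kinase that relaxes smooth muscle downstream of nitric oxide, rose by 1.02 (SE 0.41) in CoA vs Control once CoA replicate 2 was left out. ACTA2, smooth muscle alpha-actin, was at 16.26, 16.19, 14.92 and 14.98 on Control replicates 1 to 4 and at 14.47 on CoA replicate 2, against 15.95 to 16.37 on the other CoA arrays. MYH11 was at 12.74 on CoA replicate 2 and at 13.44 to 14.14 on the others. Both markers of the labelled tissue were detected on 12 of 12 arrays, with the lowest levels on Corrected replicate 3, at 13.54 for ACTA2 and 9.70 for MYH11.

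Other calcium sensors of the EF-hand family gave few calls. Of 38 listed EF-hand genes other than troponin C, 12 had a probe and 10 were tested. In CoA vs Control 1 fell and 0 rose, in Corrected vs Control 1 rose and 0 fell, and in CoA vs Corrected 2 were lower in CoA. SRI, sorcin, which binds the ryanodine receptor, had a log2 difference of -1.35 in CoA vs Control (SE 0.48, adjusted p = 0.289 in limma) and of -2.34 in CoA vs Corrected (SE 0.52, adjusted p = 0.909 in limma). The first of these missed the criterion in 4 of 23 alternatives, with -0.95 and -1.14 without Control replicates 1 and 2 and -0.44 with array weights, and the second passed in all 23. Its log2 signals were 5.69 to 6.75 on the CoA arrays, 6.73 to 8.88 on the Control arrays and 8.46 to 9.11 on the 3 Corrected arrays.

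CALU, calumenin of the endoplasmic reticulum, was 1.42 higher in Corrected vs Control (SE 0.60) and had a log2 difference of -1.34 in CoA vs Corrected (SE 0.60). These calls missed the criterion in 8 of 23 and 13 of 22 alternatives. The second was -0.92 without CoA replicate 2, and both missed it without Corrected replicate 4, at 0.78 and -0.70. CALM2, one of the calmodulin genes and thus the calcium sensor of smooth muscle, was at 14.04 to 15.50 on the Control arrays and 14.86 to 15.28 on CoA replicates 1, 3 and 4. On CoA replicate 2 it was at 12.84, the lowest of the 11 arrays, whereas both troponin C genes were at their highest.

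Markers of other cells in the ring moved with the groups to differing degrees. Of 5 tested adipocyte genes 2 fell in CoA vs Control, ADIPOQ with a log2 difference of -2.99 (SE 0.98) and PPARG, the adipocyte transcription factor, with -3.17 (SE 0.89), and ADIPOQ was -0.93 and missed the criterion under another background correction. PPARG was also lower in Corrected vs Control, at -2.29 (SE 0.96), a call that was lost in 9 of 23 alternatives, with -1.34 without Corrected replicate 4. SPP1, the macrophage and smooth muscle protein osteopontin, was the 1 of 4 macrophage genes that rose, by 2.86 (SE 0.65) in CoA vs Control and 1.95 (SE 0.70) in Corrected vs Control. The first passed in all 23 alternatives and the second missed the criterion in 7 of 24, for example at 1.55 without Control replicate 4. Of 2 tested T cell genes RAG2 rose in CoA vs Control, but not in 13 of 23 alternatives, that without CoA replicate 2 among them. The T cell receptor chains CD3E and CD247 were detected on too few arrays to be tested and went the other way, with means of 5.74 and 6.18 in Control, 3.29 and 3.99 in CoA and 2.54 and 3.73 in Corrected. With no detection filter, 0 of 6 T cell genes were higher and 2 lower in each comparison with Control. None of 3 endothelial genes passed, nor any of 4 fibroblast genes, apart from BGN, biglycan, which rose by 1.24 in CoA vs Control without CoA replicate 2. Their part in the troponin C differences was not tested.

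The genes most like the troponin C genes in pattern over the arrays were named by Pearson's r over 951 other symbols. Over the 11 arrays the same 5 genes led for both members, namely GC, the vitamin D binding protein, CYP2G1, a cytochrome P450, SLC5A10, a sugar transporter, TRIM72, a membrane repair protein of striated muscle, and ADRA1A, the alpha-1A adrenergic receptor. Their r was 0.912 to 0.935 with TNNC1 and 0.880 to 0.911 with TNNC2, below the 0.983 between the members. All 5 had their highest value among the 11 arrays on CoA replicate 2, and GC, for example, was at 10.16 there and at 7.53 to 8.36 on the other CoA arrays. On Corrected replicate 3, which did not enter r, GC was at 10.27, CYP2G1 at 7.05, SLC5A10 at 7.72 and ADRA1A at 9.44, each above its value on CoA replicate 2. TRIM72 was at 5.96 there, against 6.23 on CoA replicate 2. The troponin C genes on Corrected replicate 3 were within the range of the other Corrected arrays. Corrected replicate 3 and CoA replicate 2 had the lowest median processed signals of the 12 arrays, at 8.85 and 20.4. Whether the likeness goes with the brightness of the arrays was not tested.

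With CoA replicate 2 left out, other genes led, except GC. For TNNC1 they were DYNLL1, a dynein light chain (r = 0.901), KCNB2, a voltage-gated potassium channel (r = 0.875), GC, CDK14 and STEAP2. TNNC2 gave CDK14, a cyclin-dependent kinase (r = 0.897), DYNLL1 (r = 0.893), KCNB2 (r = 0.864), STEAP1 and GC. KCNB2 was at 6.28 to 6.93 on the Control arrays, at 7.73 to 8.22 on the CoA arrays and at 7.11 to 8.20 on Corrected replicates 1, 2 and 4, without overlap with Control. These correlations are descriptions over 10 or 11 arrays and carry no test.

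The size of the troponin C differences was followed over the alternatives in processing. For CoA vs Control, TNNC1 ranged from 1.41 to 3.83 and TNNC2 from 1.31 to 3.63, positive in 18 of 18 alternatives for each gene. For Corrected vs Control the ranges were 0.41 to 3.21 for TNNC1 and 1.53 to 2.95 for TNNC2, positive in 19 of 19. In CoA vs Corrected the sign turned in the alternatives without CoA replicate 2, so 16 of 18 were positive for each gene. The alternatives are overlapping refits of the values on which the genes were chosen, so these counts of signs are a description. In CoA vs Control no array left out could turn the sign, because every CoA array lay above every Control array.

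**Figure D4:**
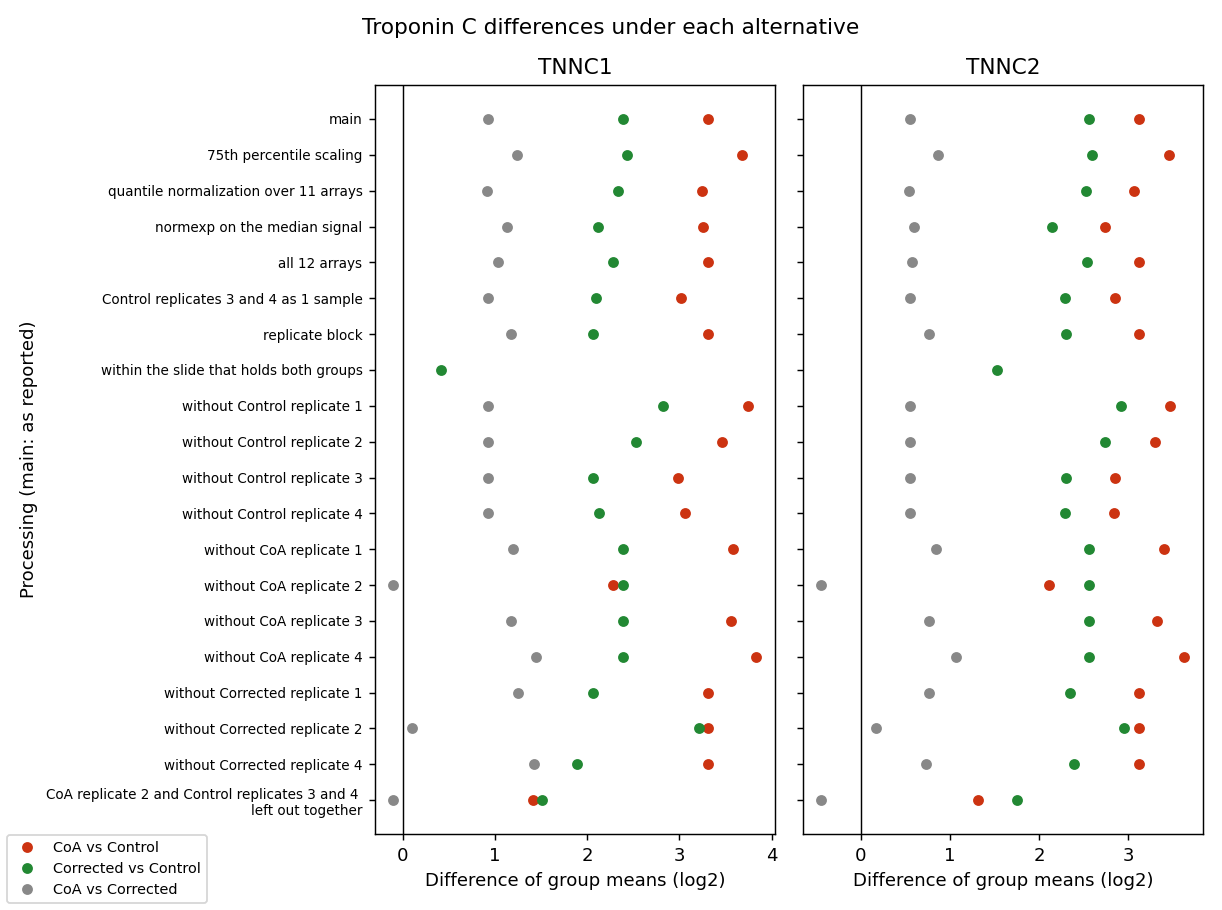
Difference of group mean log2 signals (horizontal axis) for TNNC1 (left) and TNNC2 (right) under each way of processing (vertical axis), with CoA vs Control in red, Corrected vs Control in green and CoA vs Corrected in grey. Red and green points stay above 0 throughout, and the lowest for Corrected vs Control are 0.41 and 1.53 within 1 scan, while grey points fall below 0 where CoA replicate 2 is left out.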

How the data were processed

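RNA of 12 aortic rings, 4 per group, was read on 1-colour Agilent arrays. The authors deposited Feature Extraction output (version 11.0.1.1 per the file headers), whose processed signal is an intensity with the background already subtracted and no normalization between arrays, and the median intensities of spot and background. Each array held 43803 non-control spots, and 0 were saturated. The number of arrays limits the precision.

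Here the log2 of the processed signal was taken and quantile normalized across the 12 arrays. Outlier spots were dropped, spots of a probe averaged, and probes detected on at least 8 arrays tested, which left 27283. Symbols came from the RefSeq gene table of mOryCun1.1 by accession. The build of the array design differs, so no coordinates are given.

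One linear model in limma 3.58.1 (R 4.3.3) held 11 arrays, without Corrected replicate 3, and all tests were two-sided. Single probes stood for genes by the highest mean signal. Members, gene lists and named genes were chosen with earlier results of these data known. The named genes were the members, the measured genes of 5 muscle and calcium lists, cell type markers that moved with a result, and the 5 symbols of highest r with each member. Alternatives covered normalization (75th percentile, quantile over 11 arrays, normexp with an offset of 50), detection, arrays left out, array weights and blocks for replicate number, scan and scan day. Arrays that share a scan were taken to share a slide. Replicate numbers were not taken as pairs in the main model. Correlations between same-numbered arrays, of deviations from the group means, ran from -0.45 to 0.45. They cannot decide whether the numbers pair the arrays, because arrays with different numbers were not compared. Each array was taken as 1 rabbit, since the labels number the samples and name no other source of replication. Whether Control replicates 3 and 4, which were nearly alike over all probes, came from separate rabbits was not tested. The code was tested on simulated data with 200 changed probes, and Python 3.11.15 with numpy 2.4.6, pandas 2.3.3, scipy 1.17.1 and matplotlib 3.10.9 made tables and plots, with statmod 1.5.0 for random blocks.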

Additional observations from a re-analysis of the deposited data

Results flagged for a closer look

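Among 52 genes in 104 group checks of 4 arrays each, 15 had 1 array far from the rest of its group. The measure was the gap to the next array as a share of the range of the group, and the smallest share flagged was 0.852. Chance alone gives about 1 in 20 in independent checks. These checks share the same arrays, and their genes were chosen with earlier results known, so that rate is no yardstick for the 15. CoA replicate 2 accounted for 8 of the 15, with TNNI3K at 11.2, PLN at 13.4, CKMT2 at 14.2, SLN at 9.49, CKM at 13.3, TRDN at 8.74, SRL at 13.5 and KCNMA1, a calcium-activated potassium channel, at 9.18. Control replicate 1 was far above its group for CKMT2 at 8.38, for PYGM, muscle glycogen phosphorylase, at 8.67, for KCNMA1 at 7.21 and for CAPNS1, the small calpain subunit, at 10.9. Control replicate 2 was far below for RYR1, the skeletal ryanodine receptor, at 3.9 and for S100A10 at 10.6, and far above for ROCK1 at 9.36. For the troponin C genes, the gap of CoA replicate 2 to the next CoA array was 0.820 (TNNC1) and 0.796 (TNNC2) of the range of the group, just short of that mark.

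Corrected replicate 3 enters no group mean, and on it TNNC1 was at 11.76 and TNNC2 at 11.42, above the highest Control values of 11.11 and 10.02.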

How the results depend on the processing

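For the troponin C genes, leaving out CoA replicate 2 with Control replicates 3 and 4 gave CoA vs Control differences of 1.41 (TNNC1) and 1.31 (TNNC2), and the 1 scan with both groups gave Corrected vs Control differences of 0.41 and 1.53. CoA vs Corrected turned to -0.10 and -0.45 without CoA replicate 2, alone or with those Control arrays. Leaving out 1 array at a time, TNNC1 ran from 2.28 to 3.83, from 1.89 to 3.21 and from -0.10 to 1.45 in the 3 comparisons, and TNNC2 from 2.12 to 3.63, from 2.29 to 2.95 and from -0.45 to 1.07. The causes were not tested. Probes passing the 2-fold criterion numbered 2404 (CoA vs Control), 1471 (Corrected vs Control) and 755 (CoA vs Corrected). The study's own counts at that fold change were lower in each comparison. In the same order of comparisons, 934, 558 and 117 passed under normexp, and 3733, 2428 and 1461 with no detection filter. With detection on all 12 arrays 1278, 786 and 317 passed. With array weights 5235 and 2539 passed in the first 2, with 11112 and 82 adjusted calls. CoA vs Control had 869 adjusted calls with slide as a random block and 21 without Control replicate 2, and each other setting gave 0 or 1 in any comparison. CoA vs Control gave 1566 with Control replicates 3 and 4 as 1 sample and 1602 with scan day as a block. Control replicate 3 was the only array of its scan day, so that block amounts to leaving this array out and gave the same counts. The tallies of alternatives for the listed genes include this refit under both names. With all 12 arrays, Corrected vs Control gave 2851 and CoA vs Corrected 1163. Slide as a fixed block gave 547 for Corrected vs Control and could not be fitted for the others, and as a random block it gave 1206 for CoA vs Corrected. Leaving out 1 array gave 1544 to 3533, 764 to 2404 and 642 to 1779. Scaling to the 75th percentile moved the split in CoA vs Control from 979 higher and 1425 lower to 1529 and 1221, and the median of all probes from 0.06 to 0.22.

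With the replicate number as a block, the counts were 2533, 1106 and 1158, and the TNNC1 and TNNC2 differences were 3.31 and 3.12, 2.06 and 2.30, and 1.17 and 0.76. The median over probes was not run, as each gene has 1 probe.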
